A study of Mus musculus with 30 samples.

Results

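Collagens are the main structural proteins of the extracellular matrix, and their genes were followed here in brown adipose tissue (BAT) and inguinal white adipose tissue (iWAT) of mice exposed to cold. The members were every gene whose symbol is Col, a type number, the letter a and a chain number, which gave 44 of the 21652 genes in the deposited tables. They comprised 11 fibrillar chains, 9 fibril-associated chains, 6 chains of basement membrane type IV, 6 chains of type VI, 4 transmembrane chains, 3 network-forming chains of types VIII and X, 2 multiplexins, the type VII chain and 2 others. The study sequenced polyadenylated RNA from male C57BL/6J mice of 7 to 8 weeks, kept 5 to a cage with a light phase of 12 h. Each tissue has 3 groups of 5 libraries, namely mice at 22 °C, mice after 6 h at 6 °C and mice after 24 h at 6 °C, so that there are 30 libraries in all. The labels name no mutant allele and no drug. The general housing note gives a room temperature of 24 ± 2 °C, which is not the 22 °C of the control labels.

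Every collagen molecule holds a triple helix of chains that are made and hydroxylated in the endoplasmic reticulum. Most collagens are then secreted, and the fibrillar ones are trimmed and cross-linked outside the cell. Fibrillar collagens build the tension-bearing fibres of the stroma, with types I and III as the bulk and type V as the chain that starts a fibril. Type IV collagen forms the sheet of the basement membrane, which in adipose tissue surrounds each adipocyte and each capillary, and its usual trimer is made of the products of Col4a1 and Col4a2. Type VI collagen forms beaded filaments next to that sheet and is abundant in fat. Fibroblasts and adipocyte progenitors are the usual source of fibrillar chains, whereas adipocytes, endothelial cells and mural cells all contribute type IV.

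The promoters of 4 genes are shown because Col4a1 and Col4a2 changed together in cold-exposed BAT while Col1a2 and Col3a1, which encode chains of types I and III, did not follow them. Each is RefSeq sequence of GRCm38.p6, 250 bases before to 50 bases after the annotated start, written 5′ to 3′ on the gene's own strand. Capitals mark the letters CCAAT and GGGCGG, read on both strands (ATTGG and CCGCCC on the other), and TATAAA.
Col4a1 (chr8:11312777-11313076, minus strand): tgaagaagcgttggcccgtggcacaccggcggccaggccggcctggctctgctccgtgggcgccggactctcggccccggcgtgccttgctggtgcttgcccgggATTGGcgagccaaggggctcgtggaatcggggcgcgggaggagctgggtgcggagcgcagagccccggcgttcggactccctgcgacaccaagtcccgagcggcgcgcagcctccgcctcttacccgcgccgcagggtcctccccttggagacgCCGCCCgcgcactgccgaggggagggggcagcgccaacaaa
Col4a2 (chr8:11312555-11312854, plus strand): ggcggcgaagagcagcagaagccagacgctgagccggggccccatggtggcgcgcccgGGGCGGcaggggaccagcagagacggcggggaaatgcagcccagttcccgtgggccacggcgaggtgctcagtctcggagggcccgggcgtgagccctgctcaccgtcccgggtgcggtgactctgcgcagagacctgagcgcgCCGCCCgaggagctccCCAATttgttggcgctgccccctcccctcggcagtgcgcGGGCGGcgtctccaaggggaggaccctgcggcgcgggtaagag
Col1a2 (chr6:4505368-4505667, plus strand): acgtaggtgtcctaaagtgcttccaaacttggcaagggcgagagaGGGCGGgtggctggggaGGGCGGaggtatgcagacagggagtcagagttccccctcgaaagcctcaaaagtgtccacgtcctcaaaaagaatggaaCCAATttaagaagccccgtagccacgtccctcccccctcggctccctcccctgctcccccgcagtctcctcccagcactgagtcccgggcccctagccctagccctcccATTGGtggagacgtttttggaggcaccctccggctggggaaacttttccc
Col3a1 (chr1:45311288-45311587, plus strand): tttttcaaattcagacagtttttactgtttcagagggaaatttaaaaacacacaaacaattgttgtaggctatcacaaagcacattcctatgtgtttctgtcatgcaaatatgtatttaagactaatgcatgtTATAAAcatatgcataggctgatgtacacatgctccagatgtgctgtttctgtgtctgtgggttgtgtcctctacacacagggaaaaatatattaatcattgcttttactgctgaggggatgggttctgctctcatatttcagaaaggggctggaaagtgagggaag
Col4a1 and Col4a2 lie head to head on opposite strands, with annotated starts 21 bases apart, so that the 2 windows share 78 bases. The Col4a1 window holds 1 CCAAT and 1 GGGCGG, and the Col4a2 window 1 CCAAT and 3 GGGCGG. The GGGCGG of the Col4a1 window lies in the shared bases and is the same site as 1 of the 3 in the Col4a2 window. The Col1a2 window holds 2 of each, and the Col3a1 window holds neither but has 1 TATAAA. Of 32851 mouse promoter windows of the same length, 37.4% hold CCAAT, 35.7% hold GGGCGG and 13.6% hold TATAAA. Among 38 windows of the 35 collagen genes that matched the table, the shares are 34.2%, 60.5% and 13.2%. These are matches of letters, not binding sites.

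Library totals were 25.3 to 41 M assigned counts, and libraries of a group differed by more than counting noise. The labels do not say that the 5 libraries of a group came from 5 animals, so p-values measure only the spread between these libraries. All 10 brown adipocyte markers were higher in BAT than in iWAT at 22 °C, and their summed level was 13780 to 17400 CPM (counts scaled to the effective library total) in BAT against 153 to 1360 CPM in iWAT. Skeletal muscle RNA was uneven: the summed level of 10 muscle markers was 251 to 8453 CPM in BAT at 22 °C, 9.45 to 1489 CPM at 6 h and 2.19 to 4321 CPM at 24 h. In iWAT it was under 8 CPM in every library except replicate 2 at 22 °C, which had 3494 CPM. Replicate 4 of iWAT at 22 °C had the lowest collagen share of its group, 0.46% of its counts against 0.711 to 0.944% in the other 4 control libraries. Replicate 4 of BAT at 22 °C had the highest collagen share of its group, 0.194%, and the highest summed fibroblast markers, 1797 CPM against 1060 to 1292 CPM in the other 4. Values without replicate 4 of either tissue are given beside the results of types I, III and IV that move with it.

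Collagen messages made up 0.141 to 0.194% of the counts in BAT at 22 °C, 0.138 to 0.217% at 6 h and 0.162 to 0.19% at 24 h. In iWAT the share was 0.46 to 0.944% at 22 °C, 0.362 to 0.584% at 6 h and 0.32 to 0.49% at 24 h. Compared per length of gene, in the deposited FPKM (counts scaled to library total and gene length), the leading collagen differed by tissue. Col3a1 led in iWAT at 22 °C with 240.0 ± 66.1 FPKM (SD, n = 5), followed by Col4a1 with 120.6 ± 30.9 FPKM, Col1a1 with 88.3 ± 26.0 FPKM and Col1a2 with 77.0 ± 23.0 FPKM. Every control library of Col3a1 lay above every one of the other 3 genes, whose ranges overlapped. Col4a1 led in BAT at 22 °C with 54.4 ± 5.24 FPKM, followed by Col4a2 with 41.8 ± 3.95 FPKM, Col3a1 with 31.2 ± 7.86 FPKM, Col1a1 with 13.9 ± 5.54 FPKM and Col6a1 with 13.0 ± 2.04 FPKM. Between 15 and 19 members reached a mean of 1 FPKM in a group, and 12 to 16 stayed under 0.1 FPKM. A filter on low counts left 30 members for the tests within BAT and 33 for those within iWAT and between tissues. Col2a1, Col4a6, Col6a4, Col8a2, Col9a1, Col9a2, Col17a1, Col19a1, Col22a1, Col25a1 and Col26a1 were too low in both tissues, and Col11a1, Col24a1 and Col6a5 were too low in BAT.

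**Figure D1:**
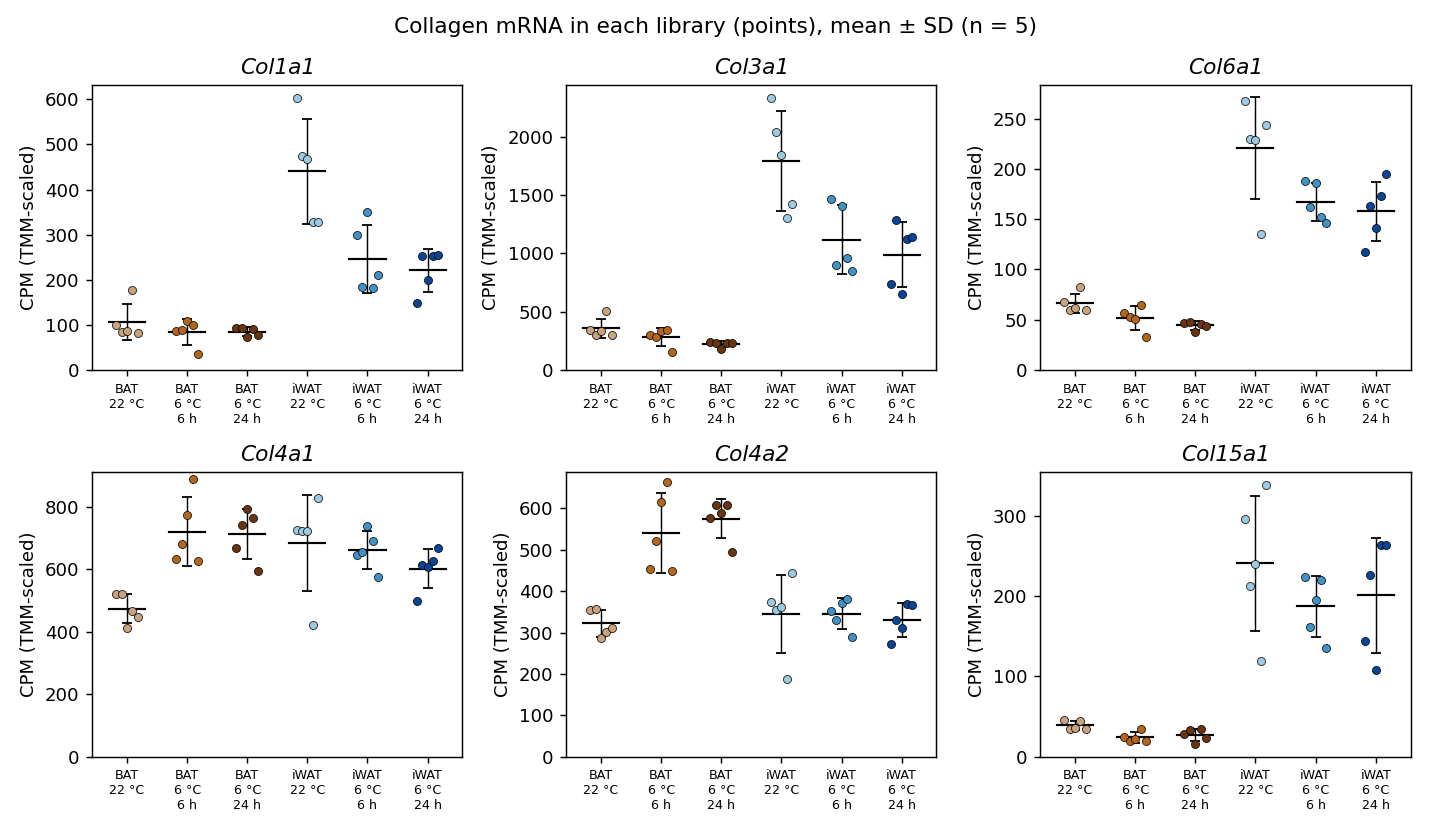
Level in CPM (scaled by TMM over all 30 libraries) of Col1a1, Col3a1, Col6a1, Col4a1, Col4a2 and Col15a1 in each library, with BAT on the left and iWAT on the right of each panel and 22 °C, 6 h and 24 h in order. Points are libraries and bars are the mean ± SD of 5; the cold BAT libraries of Col4a1 (594 to 888) and Col4a2 (448 to 665) lie above every BAT library at 22 °C, while the iWAT libraries of both genes overlap across the 3 times.

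In BAT the main pair of basement membrane chains rose at both times, and several fibrillar and type VI chains fell by 24 h. Col4a1 and Col4a2 were higher at both times in the cold, by 0.57 to 0.82 on the log2 scale, while no fibrillar chain of types I, III or V was called at 6 h. By 24 h Col3a1, Col5a1, Col5a2 and all 4 tested type VI chains had fallen. At 6 h 5 of the 30 tested collagens rose and 4 fell, where 12.5% of all tested genes rose and 10.2% fell (edgeR quasi-likelihood test, Benjamini-Hochberg adjusted p under 0.05 over all tested genes). At 24 h 3 rose and 10 fell, where 12.8% of all tested genes rose and 10.4% fell. The median log2 change over the tested collagens was -0.28 at 6 h and -0.36 at 24 h, beside -0.01 and -0.01 over all tested genes. Both times were compared with the same 5 control libraries. At 6 h 5 collagens had all cold libraries above all controls and 3 had them below, where 9.76% and 6.29% of all tested genes did so. At 24 h these counts were 3 and 8, where the shares of all tested genes were 11% and 7.2%. In bulk tissue, fewer cells of a type and less RNA per cell cannot be told apart.

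Col4a1 had 519, 519, 413, 465 and 446 CPM in the 5 BAT libraries at 22 °C, 632, 679, 773, 888 and 625 CPM at 6 h, and 668, 742, 791, 764 and 594 CPM at 24 h. Every cold library stood above every control library. The log2 change was 0.59 (SE 0.11, adjusted p = 0.000795) at 6 h and 0.57 (SE 0.11, adjusted p = 0.000953) at 24 h. Col4a2, which encodes the partner chain of the same trimer, had 354, 358, 287, 301 and 311 CPM at 22 °C, 453, 520.3, 615, 665 and 448 CPM at 6 h, and 577, 608, 588, 609 and 494 CPM at 24 h. Its groups did not overlap either. It rose by 0.73 (SE 0.11, adjusted p = 0.000172) at 6 h and by 0.82 (SE 0.11, adjusted p = 5.68e-05) at 24 h. Both genes stayed called at both times without any 1 library, and also with the muscle marker level as a covariate, where Col4a1 changed by 0.55 at 6 h and 0.54 at 24 h and Col4a2 by 0.68 and 0.77. The other tested type IV chains, which form the networks known best from the kidney glomerulus, were scarce and not called at either time: Col4a3 changed by 0.22 and -0.15, Col4a4 by 0.22 and -0.16, and Col4a5 by -0.28 and -0.14. Where Col4a1 and Col4a2 overlap near their shared start, reads of the genes cannot be told apart, because the strand setting is not stated.

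The multiplexins sit at the outer face of basement membranes, and they did not follow type IV. Col15a1 had 45.2, 35.1, 35.3, 44.0 and 35.0 CPM in BAT at 22 °C, 24.2, 19.4, 22.4, 34.9 and 19.2 CPM at 6 h, and 28.5, 32.6, 15.9, 34.5 and 22.9 CPM at 24 h. The cold libraries lay below all controls at both times. It fell by 0.71 on the log2 scale at 6 h (SE 0.19, adjusted p = 0.0145), and the change of -0.55 at 24 h missed the threshold (adjusted p = 0.0514). Col18a1, the parent of endostatin, had 8.82, 10.96, 8.04, 11.01 and 7.49 CPM at 22 °C, 10.2, 11, 11.8, 12.6 and 8.51 CPM at 6 h, and 10.6, 10.1, 10.7, 11.01 and 7.80 CPM at 24 h. Its groups overlapped and its changes of 0.21 and 0.10 were not called. Col18a1 overlaps Slc19a1 on the opposite strand, whose mean level was 12.3 to 22.9 CPM in the 6 groups, so that its own reads are uncertain too.

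The chains of type I were not called in BAT. Col1a1 had 99.4, 84.7, 86.8, 178 and 81.6 CPM at 22 °C, 87.4, 89.1, 108, 99.9 and 36.3 CPM at 6 h, and 92.4, 92.6, 72.5, 90.3 and 76.8 CPM at 24 h. The high control and the low 6 h library are single libraries, and the remaining values overlap. Its log2 change was -0.35 (SE 0.25, adjusted p = 0.341) at 6 h and -0.33 (SE 0.25, adjusted p = 0.356) at 24 h, and without control replicate 4 these were -0.08 and -0.07. Col1a2 had 135, 119, 136, 234 and 117 CPM at 22 °C, 119, 134, 137, 130.1 and 60.5 CPM at 6 h, and 115, 119.7, 96.0, 116 and 115 CPM at 24 h, with changes of -0.36 and -0.41 that were not called and were -0.14 and -0.19 without control replicate 4. Col3a1, the sole chain of type III, did move at 24 h. It had 338, 303, 331, 504 and 300.1 CPM at 22 °C, 296, 284, 332, 341 and 152 CPM at 6 h, and 235, 235, 179.9, 233 and 227 CPM at 24 h. All 24 h libraries lay under all controls, whereas the 6 h libraries overlapped them. The change was -0.35 (adjusted p = 0.18) at 6 h and -0.69 (SE 0.18, adjusted p = 0.0114) at 24 h, and without control replicate 4 these were -0.20 (adjusted p = 0.478) and -0.54 (adjusted p = 0.0361).

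Type V chains seed fibrils of types I and III. Col5a1 had 31.2, 22.5, 28.0, 40.2 and 24.9 CPM in BAT at 22 °C, 18.7, 22.0, 25.5, 28.2 and 16.0 CPM at 6 h, and 19.4, 23.6, 16.2, 18.9 and 17.3 CPM at 24 h. It fell by 0.64 at 24 h (SE 0.17, adjusted p = 0.0107), with 1 library of each group overlapping. Col5a2 fell by 0.47 at 24 h (SE 0.10, adjusted p = 0.00183), to a mean of 25.0 ± 1.81 CPM against 34.2 ± 4.61 CPM at 22 °C (SD, n = 5 each), without overlap. Col5a3 had 41.1, 26.6, 31.0, 38.9 and 31.1 CPM at 22 °C, 20.8, 22.8, 23.2, 52.8 and 23.2 CPM at 6 h, and 26.5, 20.9, 26.3, 26.0 and 15.9 CPM at 24 h. Its changes of -0.26 and -0.56 were not called, although the 24 h libraries lay below the controls. Of the other fibrillar chains, Col27a1 changed by 0.19 and 0.33 without a call. Col11a2, known mainly from cartilage, had 5.28, 5.71, 5.55, 5.67 and 3.64 CPM at 22 °C, 9.29, 9.90, 8.28, 11.6 and 10.3 CPM at 6 h, and 8.44, 6.38, 4.99, 4.29 and 4.40 CPM at 24 h. It rose by 0.92 at 6 h (SE 0.18, adjusted p = 0.00151) and its 24 h libraries overlapped the controls (0.12, adjusted p = 0.663).

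Type VI filaments are built of the products of Col6a1, Col6a2 and Col6a3, and the last of these is the source of endotrophin. Col6a1 had 67.7, 59.7, 61.9, 82.5 and 59.6 CPM in BAT at 22 °C, 56.5, 53.0, 51.0, 65.0 and 32.3 CPM at 6 h, and 47.0, 47.7, 37.4, 45.3 and 44.1 CPM at 24 h. The 24 h libraries lay below every control, and the gene fell by 0.60 (SE 0.14, adjusted p = 0.00615). Col6a2 had 60.7, 54.0, 55.6, 75.5 and 50.3 CPM at 22 °C, 49.9, 48.9, 47.2, 68.1 and 28.1 CPM at 6 h, and 40.8, 36.2, 28.4, 44.7 and 35.8 CPM at 24 h. It fell by 0.69 at 24 h (SE 0.18, adjusted p = 0.0107), again without overlap. Col6a3 had 59.9, 56.2, 68.7, 76.2 and 53.7 CPM at 22 °C, 45.5, 51.8, 56.8, 62.1 and 33.1 CPM at 6 h, and 46.1, 55.2, 41.5, 43.2 and 44.4 CPM at 24 h. Its fall of 0.47 at 24 h (SE 0.14, adjusted p = 0.0251) was lost, with adjusted p-values of 0.0518 to 0.0718, without control replicates 3 or 4 or 24 h replicates 3 or 4. At 6 h these 3 chains changed by -0.31 to -0.38 and were not called. Col6a6, an alternative partner chain of Col6a1 and Col6a2, was rare but moved furthest: 3.17, 4.11, 2.77, 2.33 and 2.48 CPM at 22 °C, 1.08, 0.928, 1.59, 1.36 and 0.807 CPM at 6 h, and 0.863, 1.02, 0.475, 0.818 and 1.17 CPM at 24 h. Both cold groups lay below every control, and it fell by 1.38 (SE 0.26, adjusted p = 0.00124) and by 1.78 (SE 0.27, adjusted p = 0.000165).

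The remaining collagens called in BAT were all scarce. Col13a1, a transmembrane chain, had 5.89, 5.25, 5.61, 4.42 and 3.81 CPM at 22 °C, 7.04, 7.56, 7.24, 7.51 and 6.29 CPM at 6 h, and 7.80, 10.01, 10.3, 10.5 and 6.94 CPM at 24 h. It rose by 0.50 at 6 h (SE 0.15, adjusted p = 0.0211) and by 0.85 at 24 h (SE 0.15, adjusted p = 0.000511), and the 6 h call was lost without control replicate 4 or 5 (adjusted p = 0.0534 and 0.0558). Col23a1, also a transmembrane chain, had 2.28, 2.79, 3.40, 3.30 and 3.03 CPM at 22 °C, 1.76, 1.31, 1.38, 1.53 and 1.15 CPM at 6 h, and 1.33, 1.82, 1.62, 1.02 and 1.31 CPM at 24 h. It fell by 1.07 (SE 0.20, adjusted p = 0.001) and by 1.08 (SE 0.20, adjusted p = 0.000902). Col7a1, which forms the anchoring fibrils of skin, moved in opposite directions at the 2 times. It had 4.55, 5.02, 4.03, 4.26 and 4.63 CPM at 22 °C, 7.08, 6.36, 7.55, 9.48 and 9.60 CPM at 6 h, and 4.10, 2.38, 2.06, 1.81 and 2.75 CPM at 24 h. It rose by 0.82 at 6 h (SE 0.19, adjusted p = 0.00486) and fell by 0.79 at 24 h (SE 0.19, adjusted p = 0.00673). Col20a1, a fibril-associated chain, had 4.39, 4.52, 2.77, 2.77 and 2.38 CPM at 22 °C, 3.76, 2.92, 6.04, 4.66 and 4.07 CPM at 6 h, and 2.59, 1.96, 2.06, 1.29 and 1.34 CPM at 24 h. It fell by 0.88 at 24 h (SE 0.25, adjusted p = 0.0181), a call lost without control replicate 1 or 2 (adjusted p = 0.0512 and 0.0528). Col10a1, a cartilage network chain, had 1.06, 0.777, 1.67, 1.89 and 0.613 CPM at 22 °C and 0.560, 0.447, 0.966, 0.281 and 0.288 CPM at 6 h. Its fall of 1.25 at 6 h (SE 0.41, adjusted p = 0.0377) was lost in 7 of 10 fits without 1 library (adjusted p = 0.0523 to 0.11), namely control replicates 1, 3 and 4 and 6 h replicates 1, 2, 4 and 5. Col10a1 lies opposite Nt5dc1, whose mean level of 23.1 to 47.8 CPM in the 6 groups is far higher, so its own reads are uncertain.

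Directly between the cold times, 3 BAT collagens were lower and none higher at 24 h than at 6 h, where 6.45% of all tested genes fell and 6.6% rose. Col7a1 fell by 1.61 at 24 h relative to 6 h (SE 0.19, adjusted p = 0.000108), Col20a1 by 1.22 (SE 0.25, adjusted p = 0.00474) and Col11a2 by 0.80 (SE 0.18, adjusted p = 0.00796). The 24 h libraries of Col7a1 and Col20a1 lay below all 6 h libraries, as did those of 4.55% of all tested genes, and no collagen lay above, where 4.53% of all tested genes did. Col4a1 and Col4a2 changed by -0.02 (adjusted p = 0.939) and 0.09 (adjusted p = 0.628), and the chains of types I, III, V and VI by -0.40 to 0.01, none of them called. Replicate 5 of the 6 h group was the lowest of that group in Col1a1, Col1a2, Col3a1, Col6a1, Col6a2 and Col6a3, and without it 5 members were called.

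In iWAT 5 of 10 tested fibrillar chains and 3 of 5 tested type VI chains fell at each time, 1 fibrillar chain rose at each time, and no type IV chain was called. The type VI chains were not the same at both times: Col6a3, Col6a5 and Col6a6 at 6 h, and Col6a1, Col6a3 and Col6a6 at 24 h. The riser was Col11a2 at 6 h and Col27a1 at 24 h. At 6 h 12 of the 33 tested collagens fell and 1 rose, where 10.1% of all tested genes fell and 12.9% rose. At 24 h 11 fell and 1 rose, where 10.1% of all tested genes fell and 12.8% rose. The median log2 change over the tested collagens was -0.47 at 6 h and -0.50 at 24 h, beside -0.03 and -0.04 over all tested genes. At 6 h no collagen had its cold libraries all below or all above the controls, where 4.08% and 5.27% of all tested genes did so. At 24 h 5 had them below and 1 above, where the shares were 6.27% and 10.4%. The 2 comparisons share their 5 control libraries, and the count of calls at 6 h was 6 without control replicate 1 and 16 without control replicate 4.

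Col1a1 had 604, 476, 468, 327 and 327 CPM in iWAT at 22 °C, 299.8, 184, 350.1, 182 and 210.0 CPM at 6 h, and 147, 253, 198, 252 and 255 CPM at 24 h. At 24 h every library lay below every control, while at 6 h 1 library reached into the range of the controls. It fell by 0.87 at 6 h (SE 0.22, adjusted p = 0.0142) and by 1.01 at 24 h (SE 0.22, adjusted p = 0.00516). Col1a2, the other type I chain, had 1006, 809.8, 729, 583 and 511 CPM at 22 °C, 449, 321, 622, 336 and 378 CPM at 6 h, and 285, 451, 402, 439 and 458 CPM at 24 h. It fell by 0.81 (SE 0.21, adjusted p = 0.0144) and by 0.86 (SE 0.21, adjusted p = 0.00903). Col3a1 had 2333, 2043, 1844, 1301 and 1424 CPM at 22 °C, 1468, 901, 1406, 961 and 851 CPM at 6 h, and 733, 1288, 650.3, 1119 and 1138 CPM at 24 h. The 24 h libraries lay below all controls, with 1288 CPM the highest of them and 1301 CPM the lowest control. Its fall was 0.88 at 24 h (SE 0.22, adjusted p = 0.0112). The fall of 0.70 at 6 h (SE 0.22, adjusted p = 0.0339) was lost without control replicates 1, 2 or 3 or 6 h replicates 2, 4 or 5 (adjusted p = 0.0601 to 0.0952).

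The chains of type V behaved unequally in the tests. Col5a1 had 188, 147, 143, 100.3 and 142 CPM in iWAT at 22 °C, 94.3, 73.8, 126, 84.4 and 78.2 CPM at 6 h, and 59.4, 103, 84.7, 100.2 and 99.8 CPM at 24 h. It fell by 0.68 at 6 h (SE 0.18, adjusted p = 0.0176), a call lost without control replicate 1 (adjusted p = 0.0554), and by 0.70 at 24 h (SE 0.18, adjusted p = 0.0125). Col5a2 fell by 0.50 (SE 0.13, adjusted p = 0.0152) and by 0.53 (SE 0.13, adjusted p = 0.00977). Col5a3 had 283, 216, 213, 140.2 and 347 CPM at 22 °C, 203, 183, 219, 327 and 146 CPM at 6 h, and 164, 219.9, 169.6, 228 and 207 CPM at 24 h. These groups overlap widely, and its changes of -0.18 and -0.30 were not called. Col27a1, a rare fibrillar chain, was higher at 24 h, with 25.3, 27.6, 23.8, 21.3 and 32.3 CPM, compared with 11.2, 14.4, 15.4, 14.4 and 9.56 CPM at 22 °C. It rose by 0.99 at 24 h (SE 0.21, adjusted p = 0.00406), and its change of 0.10 at 6 h was not called. Col11a2 rose by 1.39 at 6 h (SE 0.33, adjusted p = 0.0108), with 1.36, 2.60, 1.85, 3.87 and 3.87 CPM at 6 h against 0.995, 0.863, 1.22, 1.42 and 0.590 CPM at 22 °C, and at 24 h its change was 0.90 (adjusted p = 0.0605).

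Type IV showed no call in iWAT at either time. Col4a1 had 724, 721, 721, 422 and 828 CPM at 22 °C, 646, 655, 736, 690.5 and 574 CPM at 6 h, and 498, 612, 606, 626 and 668 CPM at 24 h. Its log2 change was -0.07 (SE 0.15, adjusted p = 0.742) and -0.20 (SE 0.15, adjusted p = 0.348). Control replicate 4 was the low library, and without it the change at 24 h was -0.31 and passed the threshold (adjusted p = 0.0397). Col4a2 had 374, 354, 362, 188 and 443 CPM at 22 °C, 353, 331, 372, 382 and 289.6 CPM at 6 h, and 272, 331, 311, 369 and 366 CPM at 24 h. Its changes were -0.02 (SE 0.17, adjusted p = 0.938) and -0.08 (SE 0.17, adjusted p = 0.771), and -0.16 and -0.21 without control replicate 4 (adjusted p = 0.309 and 0.182). Col4a3, Col4a4 and Col4a5 changed by 0.22, -0.51 and -0.70 at 6 h and by 0.21, -0.79 and -0.38 at 24 h. Of the multiplexins, Col15a1 had 296, 212, 239.7, 119 and 339 CPM at 22 °C, 224, 162, 195, 220.3 and 135 CPM at 6 h, and 144, 226, 108, 264 and 264 CPM at 24 h, and Col18a1 had means of 60.0 ± 19.0, 47.5 ± 10.4 and 41.6 ± 5.42 CPM (SD, n = 5). Neither was called, at changes of -0.39 and -0.28 for Col15a1 and -0.36 and -0.55 for Col18a1, the last of which had an adjusted p of 0.0515.

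Among type VI chains in iWAT, Col6a3 had 284, 253, 222, 145 and 216 CPM at 22 °C, 189.6, 129, 169.9, 138 and 107 CPM at 6 h, and 101, 183, 88.6, 142 and 159 CPM at 24 h. It fell by 0.63 at 6 h (SE 0.21, adjusted p = 0.0416) and by 0.75 at 24 h (SE 0.21, adjusted p = 0.0192). The call at 6 h was lost in 7 of 10 fits without 1 library (adjusted p = 0.0598 to 0.111), all but those without control replicate 4 and 6 h replicates 1 and 3, and the call at 24 h without control replicate 1 or 24 h replicate 1 (adjusted p = 0.0529 to 0.057). Col6a1 had 268, 229.5, 229, 135 and 244 CPM at 22 °C, 188, 162, 186, 152 and 146 CPM at 6 h, and 118, 163, 141, 173 and 194 CPM at 24 h. It changed by -0.43 at 6 h (adjusted p = 0.0686) and fell by 0.50 at 24 h (SE 0.17, adjusted p = 0.0385), a call that held only without control replicate 4 or 24 h replicate 5 and was lost in the other 8 such fits (up to 0.106). Col6a2 had 237, 210.2, 189, 112 and 213 CPM at 22 °C, 211, 142, 153, 150.1 and 110.4 CPM at 6 h, and 94.6, 146, 97.6, 151 and 161 CPM at 24 h, and its changes of -0.35 and -0.58 were not called (adjusted p = 0.223 and 0.0548). Col6a6 had 9.35, 7.40, 4.45, 4.71 and 3.19 CPM at 22 °C, 1.27, 1.11, 3.51, 1.36 and 2.23 CPM at 6 h, and 0.750, 1.73, 2.42, 1.75 and 1.37 CPM at 24 h. It fell by 1.63 (SE 0.37, adjusted p = 0.00838) and by 1.87 (SE 0.37, adjusted p = 0.00289), and its 24 h libraries lay below all controls. Col6a5 was near the detection limit, with no count in 4 of the 5 libraries at 6 h and 0.0851 to 1.31 CPM at 22 °C, and its call at 6 h (adjusted p = 0.0235) was lost without control replicates 1 or 2 or 6 h replicates 2, 4 or 5 (0.0515 to 0.0623).

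Of the fibril-associated chains in iWAT, Col14a1 had 58.1, 30.8, 36.1, 48.6 and 13.3 CPM at 22 °C, 4.79, 12.1, 21.9, 8.64 and 21.0 CPM at 6 h, and 5.77, 5.18, 31.0, 17.5 and 16.2 CPM at 24 h. Its fall of 1.46 at 6 h (SE 0.50, adjusted p = 0.0456) was kept only without control replicate 5 or 6 h replicate 3, with adjusted p up to 0.116 otherwise, and the change of -1.31 at 24 h was not called (adjusted p = 0.0678). Col16a1 had 11.02, 11.8, 6.79, 9.84 and 4.76 CPM at 22 °C, 2.03, 4.55, 5.41, 2.36 and 4.93 CPM at 6 h, and 2.02, 3.22, 4.97, 4.26 and 6.41 CPM at 24 h. It fell by 1.21 (SE 0.33, adjusted p = 0.0193) and by 1.09 (SE 0.33, adjusted p = 0.026). The 6 h call was lost without control replicate 1 or 2 (adjusted p = 0.0521 to 0.0534), and the 24 h call also without 24 h replicate 1 or 2 (0.0605 to 0.0687). Col8a1, a short-chain network collagen of vessel walls, had 9.59, 10.7, 10.7, 5.10 and 8.69 CPM at 22 °C, 3.68, 5.02, 5.49, 5.48 and 4.56 CPM at 6 h, and 3.66, 4.97, 6.13, 5.35 and 6.79 CPM at 24 h. Replicate 4 was again the low control, and the gene fell by 0.91 (SE 0.20, adjusted p = 0.00806) and by 0.75 (SE 0.20, adjusted p = 0.0151). Col23a1 fell by 0.62 (SE 0.21, adjusted p = 0.0441) and by 0.61 (SE 0.21, adjusted p = 0.046). Both calls rest on few libraries: 6 of 10 fits without 1 library lost the 6 h call (up to 0.129), those without control replicates 1, 2 or 4 or 6 h replicates 3, 4 or 5, and 8 of 10 lost the 24 h call (up to 0.137), all but those without control replicates 3 or 5. Between 24 h and 6 h no iWAT collagen was called by edgeR, where 0.00731% of all tested genes were called. No collagen had 24 h libraries all below those at 6 h and 1, Col27a1, had them all above, where 1.03% and 0.745% of all tested genes did so. Unadjusted p-values were under 0.05 for 2 collagens, Col27a1 and Col6a5, and for 9.87% of all tested genes, and DESeq2 called 1 collagen.

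**Figure D2:**
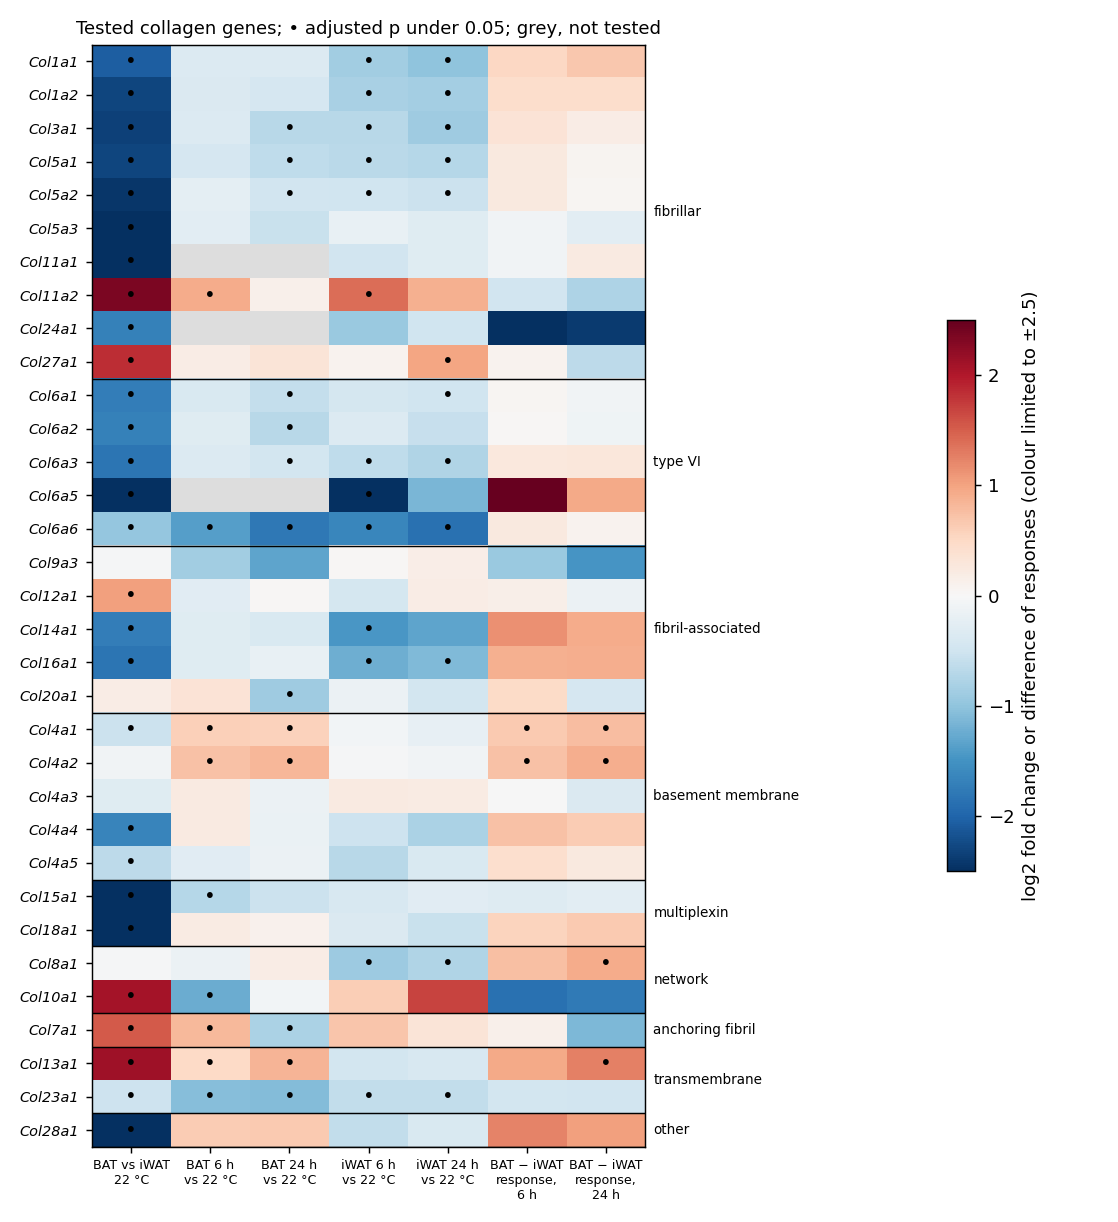
Log2 fold change of each tested collagen (rows, by class) in 7 comparisons (columns; BAT against iWAT at 22 °C, cold against 22 °C in each tissue, and the response of BAT minus that of iWAT at 6 h and 24 h); colour is limited to ±2.5, a dot marks an adjusted p under 0.05 and grey a gene that was not tested. In BAT Col4a1 and Col4a2 are the reddish type IV rows with dots at 6 h and 24 h, and in iWAT the dots at these times lie mostly on blue rows of fibrillar and type VI chains.

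Read by class, 2 of 5 tested type IV chains rose in BAT at each time and none fell, and none of 5 was called in iWAT at either time. Fibrillar chains numbered 0 falls and 1 rise of 8 at 6 h and 3 falls and no rise at 24 h in BAT, and 5 falls and 1 rise of 10 at each time in iWAT. Of the type VI chains 1 of 4 fell at 6 h and 4 of 4 at 24 h in BAT, and 3 of 5 at each time in iWAT. In iWAT Col6a5, near the detection limit, was among them only at 6 h and Col6a1 only at 24 h, and Col6a2 at neither time. These counts are descriptions, since members of a class are few and not independent. Beside them, 12.5% of all tested genes rose and 10.2% fell in BAT at 6 h, and 12.8% and 10.4% at 24 h. The shares in iWAT were 12.9% and 10.1% at 6 h and 12.8% and 10.1% at 24 h.

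Whether BAT and iWAT responded differently was tested as the difference of the log2 changes in a fit of all 30 libraries. At 6 h 2 of 33 collagens responded more upward in BAT and none more downward, where 3.38% and 6.03% of all tested genes did so, 9.4% together. At 24 h 4 responded more upward and none more downward, where the shares of all tested genes were 2.96% and 4.85%, 7.81% together. The response of Col4a1 was higher in BAT than in iWAT by 0.66 at 6 h (SE 0.18, adjusted p = 0.025) and by 0.77 at 24 h (SE 0.18, adjusted p = 0.0111). For Col4a2 the difference was 0.74 at 6 h (SE 0.21, adjusted p = 0.0258) and 0.90 at 24 h (SE 0.21, adjusted p = 0.00959). The 24 h differences of both genes held without any 1 of 20 libraries. At 6 h the call of Col4a1 was lost without iWAT control replicate 5 or BAT 6 h replicate 4 (adjusted p = 0.0541 at most), and that of Col4a2 without iWAT control replicates 1 or 5, iWAT 6 h replicate 5 or BAT 6 h replicates 3 or 4 (0.0579 at most). Col8a1 differed by 0.93 at 24 h (SE 0.25, adjusted p = 0.0196), with 8.91, 11.6, 12.0, 8.18 and 9.62 CPM in BAT at 24 h and 8.74, 9.78, 8.95, 8.20 and 8.27 CPM in BAT at 22 °C, where it was not called within BAT. Col13a1 differed by 1.25 at 24 h (SE 0.39, adjusted p = 0.043), and 13 of 20 fits without 1 library lost that call (up to 0.107). The fits that kept it were those without iWAT control replicates 4 or 5, iWAT 24 h replicates 4 or 5, BAT control replicate 1 or BAT 24 h replicates 1 or 5. For the fibrillar chains no difference was called: Col1a1 differed by 0.51 (adjusted p = 0.372) and 0.67 (0.248), and Col3a1 by 0.34 (0.511) and 0.18 (0.766), which does not show that the tissues responded alike.

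At 22 °C BAT held less of most collagens than iWAT. Of 33 tested collagens 22 were lower and 6 higher in BAT, where 34.5% of all tested genes were lower and 32.4% higher, 66.9% together. The median over the collagens was -1.68, which is the value of Col24a1, beside -0.04 over all tested genes. Col11a1, Col24a1 and Col6a5, all counted as lower, passed the low-count filter only through iWAT. Their direction therefore follows from the filter and adds nothing to these counts. The 15 collagens whose BAT libraries all lay below all iWAT libraries compare with 26.6% of all tested genes, and the 4 with BAT libraries above all iWAT libraries with 26% of them. Among fibrillar chains Col1a1 differed by -2.05 (SE 0.26, adjusted p = 6.02e-08), Col1a2 by -2.30 (SE 0.23, adjusted p = 7.31e-10), Col3a1 by -2.33 (SE 0.22, adjusted p = 4.55e-10), Col5a1 by -2.29, Col5a2 by -2.43 and Col5a3 by -2.83. The multiplexins were apart by as much, Col15a1 by -2.63 (SE 0.26, adjusted p = 9.61e-10) and Col18a1 by -2.70 (SE 0.18, adjusted p = 5.01e-13), and type VI chains by -1.74 for Col6a1, -1.70 for Col6a2 and -1.83 for Col6a3. Col28a1, known from peripheral nerve, had 0.691, 0.411, 1.10, 0.964 and 0.511 CPM in BAT against 7.19, 8.01, 4.04, 2.98 and 7.45 CPM in iWAT, a difference of -2.99 (SE 0.35, adjusted p = 2.28e-08). Col11a1 had at most 0.315 CPM in BAT, with no count in 2 libraries, against 2.67, 4.06, 0.671, 0.936 and 1.26 CPM in iWAT.

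The main type IV chains, Col4a1 and Col4a2, stood closer between the tissues, but not every type IV chain did. Of 5 tested type IV chains 3 were lower in BAT and none higher, and the scarce Col4a4 differed by -1.64 (edgeR adjusted p = 3.22e-05). Col4a1 was lower in BAT by 0.53 (SE 0.13, adjusted p = 0.000807), and Col4a2 differed by -0.10 (SE 0.15, adjusted p = 0.575). On the deposited FPKM, which are scaled by library totals, Col4a2 was also called lower in BAT (-0.64 on the log2(FPKM + 1) scale, limma adjusted p = 0.00122), where the median of all genes was -0.34. Relative to the median of all genes on each scale, the differences of Col4a2 were -0.05 on CPM and -0.30 on log2(FPKM + 1), and those of Col4a1 -0.49 and -0.75. With the smaller added constant, log2(FPKM + 0.1), the median was -0.576. Relative to it Col4a2 differed by -0.072 and Col4a1 by -0.526, near the values on CPM. The 6 chains higher in BAT were scarce ones except Col27a1, which had 56.3, 53.8, 48.9, 34.5 and 38.9 CPM in BAT and 11.2, 14.4, 15.4, 14.4 and 9.56 CPM in iWAT (1.84, SE 0.21, adjusted p = 1.15e-08). Col11a2 was higher by 2.35 (SE 0.28, adjusted p = 3.13e-08), Col13a1 by 2.11 (SE 0.28, adjusted p = 1.49e-07), Col10a1 by 2.08, Col7a1 by 1.54 and Col12a1, which binds fibrils, by 1.02. Col12a1 was not called on FPKM (adjusted p = 0.112). Col24a1 and Col6a6 lost their calls without iWAT replicate 1 (adjusted p = 0.0756 and 0.0511), Col4a5 without iWAT replicates 1 or 4 or BAT replicate 4 (up to 0.085), and Col23a1 without iWAT replicate 2 or BAT replicate 1 (up to 0.0899).

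Across the 6 groups, 25 of the 33 tested collagens had their highest mean FPKM in iWAT at 22 °C, 4 in BAT at 24 h, 2 in BAT at 6 h and 2 in iWAT at 24 h. On CPM 21 of them were highest in iWAT at 22 °C. Col4a2 was highest in BAT at 24 h, at 74.0 ± 6.25 FPKM, ahead of iWAT at 22 °C with 68.6 ± 20.6 FPKM and BAT at 6 h with 68.0 ± 13.8 FPKM, and these 3 do not differ beyond their spread in that unit. In CPM, which adjust for the make-up of the libraries, every cold BAT library of Col4a2, 448 to 665 CPM, lay above every iWAT library at 22 °C, 188 to 443 CPM. Its lowest group was BAT at 22 °C with 41.8 ± 3.95 FPKM, and both cold iWAT groups lay between, at 57.1 ± 7.09 and 57.6 ± 7.23 FPKM. The order of Col4a1 depended on the unit. In FPKM iWAT at 22 °C was its highest group, at 120.6 ± 30.9 FPKM, then iWAT at 6 h with 96.9 ± 12.9 FPKM and at 24 h with 93.2 ± 10.7 FPKM, and BAT with 81.2 ± 9.90 FPKM at 24 h, 80.2 ± 13.8 FPKM at 6 h and 54.4 ± 5.24 FPKM at 22 °C. The ranges of neighbours in that order overlapped except for BAT at 6 h, 63.8 to 98.3 FPKM, and BAT at 22 °C, 47.8 to 60.05 FPKM. In CPM BAT at 6 h came first with 719 ± 111 CPM and BAT at 24 h next with 711 ± 80.3 CPM, ahead of iWAT with 683 ± 153 CPM at 22 °C, 660.2 ± 60.0 CPM at 6 h and 602 ± 62.9 CPM at 24 h, and BAT at 22 °C again came last with 473 ± 46.5 CPM (SD, n = 5 each). The 6 groups stood in the same order in both units for 18 of the 33 tested collagens.

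The make-up of the collagen messages differed by tissue and by time. Type IV chains took 39.5 to 53.8% of the summed collagen FPKM in BAT at 22 °C, 60.5 to 70.7% at 6 h and 63.7 to 71.7% at 24 h, so that every cold library exceeded every control library. Fibrillar chains took 29.2 to 41.8% at 22 °C, 17.97 to 26.0% at 6 h and 18.6 to 23.6% at 24 h, and type VI chains 10.9 to 12.5%, 6.29 to 8.94% and 5.64 to 7.46%. The sums behind these shares moved in both directions: summed type IV FPKM was 86.4 to 108 in BAT at 22 °C, 116 to 182 at 6 h and 134 to 172 at 24 h, and summed fibrillar FPKM 56.6 to 101, 32.9 to 67.4 and 43.7 to 52.3. In iWAT type IV took 18.6 to 26.6% at 22 °C, 25.4 to 31.8% at 6 h and 25.8 to 33.1% at 24 h, and fibrillar chains 47.8 to 60.6%, 44.6 to 52.7% and 45.5 to 51.7%, with overlap between groups in each. Summed type IV FPKM in iWAT was 104 to 238 at 22 °C, 135 to 190 at 6 h and 123 to 169 at 24 h, and summed fibrillar FPKM was 330 to 669, 213 to 375 and 186 to 303. Type VI held a near-constant share in iWAT, 12.4 to 14.8%, 12.8 to 15.1% and 13.1 to 14.5%.

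**Figure D3:**
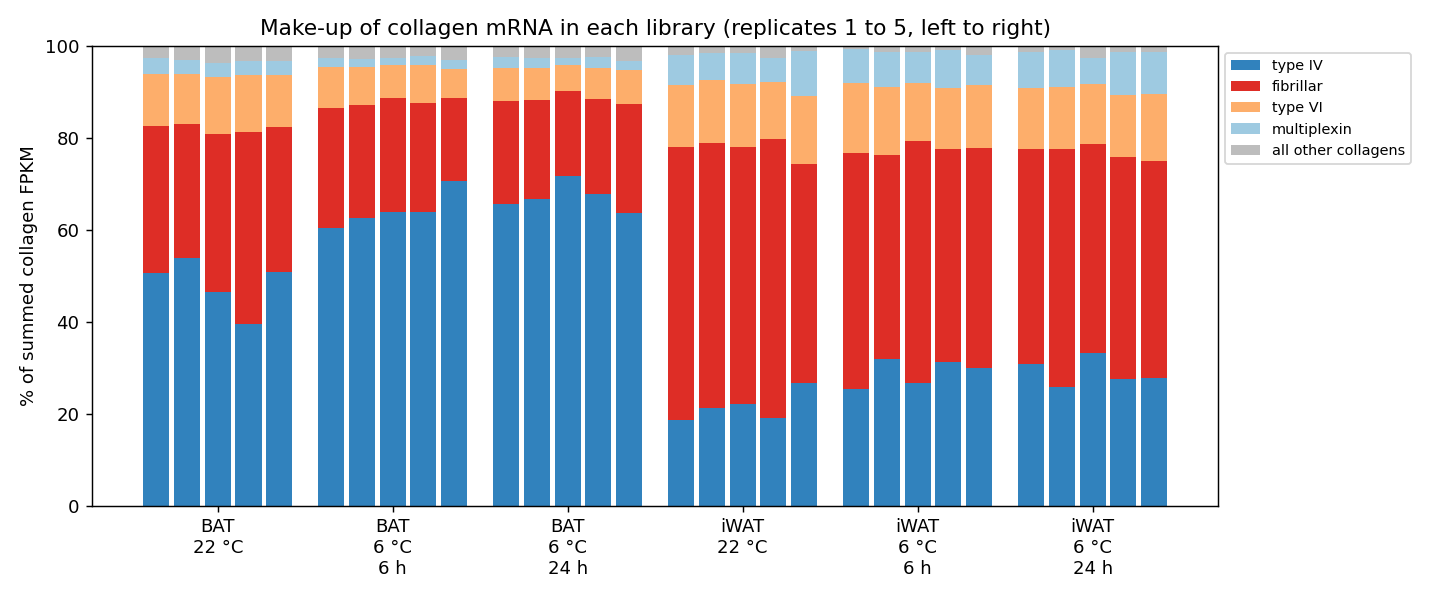
Share of the summed collagen FPKM of each library (stacked bars, percent, from 0 to 100) taken by type IV, fibrillar, type VI, multiplexin and other chains, BAT on the left and iWAT on the right with 22 °C, 6 h and 24 h in order. Type IV takes 39.5 to 53.8% in BAT at 22 °C and 60.5 to 71.7% in the cold BAT libraries, and 18.6 to 33.1% in iWAT.

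Chains that assemble together were compared within each library as log2 ratios of FPKM, given as descriptions. Col4a1 exceeded Col4a2 in every library, by 0.35 to 0.45 in BAT at 22 °C, 0.16 to 0.31 at 6 h and 0.04 to 0.25 at 24 h, and the cold ranges lie below the control range. In iWAT the ratio was 0.73 to 0.99 at 22 °C, 0.68 to 0.81 at 6 h and 0.59 to 0.79 at 24 h, above every BAT library. For the 2 type I chains, Col1a1 over Col1a2 was 0.27 to 0.52, 0.18 to 0.59 and 0.33 to 0.60 in BAT and 0.09 to 0.28, 0.04 to 0.34 and -0.10 to 0.12 in iWAT. The level of such a ratio depends on the gene lengths behind FPKM, here 6563 bases for Col1a1 and 12426 for Col1a2. In raw counts Col1a2 exceeded Col1a1 in every library, with log2 ratios of -1.02 to -0.316. Col1a1 to Col3a1 was -1.35 to -0.92 in BAT at 22 °C, -1.48 to -1.04 at 6 h and -0.98 to -0.73 at 24 h, and -1.54 to -1.37, -1.82 to -1.42 and -1.76 to -1.13 in iWAT. Within type VI, Col6a1 over Col6a2 ranged from 0.76 to 1.46 over all 30 libraries with the groups overlapping, and Col6a3 over Col6a1 from -2.12 to -1.24. In raw counts these ranges were -0.168 to 0.532 and -0.672 to 0.209.

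**Figure D4:**
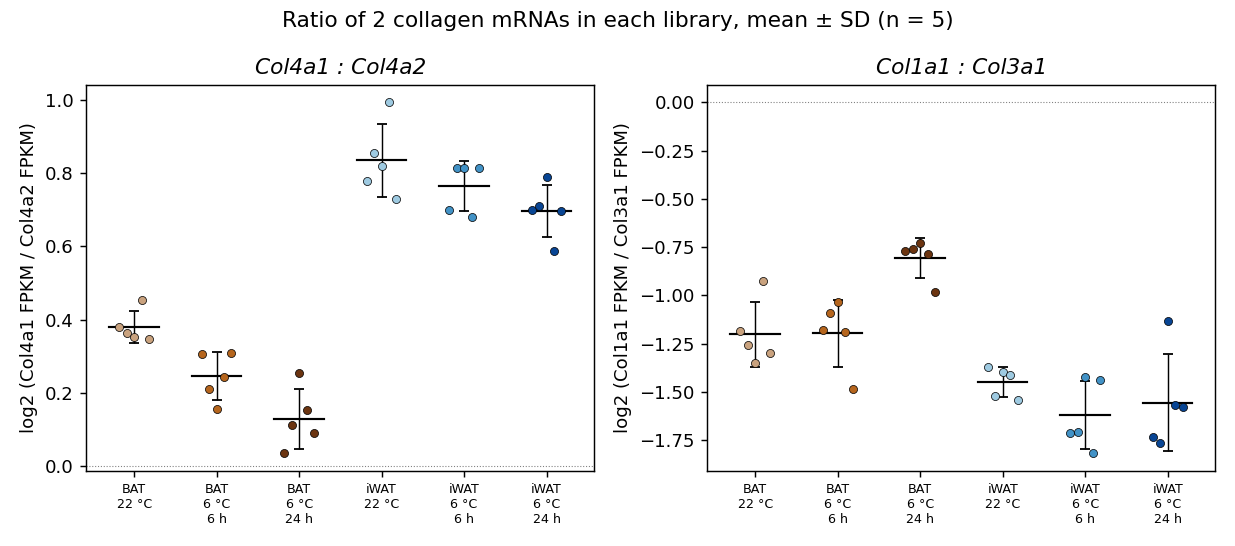
Log2 ratio of FPKM of Col4a1 to Col4a2 and of Col1a1 to Col3a1 in each library (points), with the mean ± SD of 5 libraries, BAT on the left and iWAT on the right, 22 °C, 6 h and 24 h in order. The Col4a1 to Col4a2 ratio is 0.35 to 0.45 in BAT at 22 °C, 0.04 to 0.31 in cold BAT and 0.59 to 0.99 in iWAT.

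Genes that make, cross-link, bind and degrade collagen were read beside the chains, with the same test. Over all tested genes, 12.5% rose and 10.2% fell in BAT at 6 h, and 12.8% and 10.4% at 24 h. The shares in iWAT were 12.9% and 10.1% at 6 h and 12.8% and 10.1% at 24 h. In BAT 3 of 22 tested genes for collagen synthesis and processing rose and 1 fell at 6 h, and 3 rose and 3 fell at 24 h. The risers were enzymes of hydroxylation and a chaperone: P4ha1, a prolyl 4-hydroxylase subunit, rose by 1.11 at 6 h (SE 0.22, adjusted p = 0.00158), P4ha2, its paralogue, by 0.51 at 6 h and 0.58 at 24 h, Plod2, a lysyl hydroxylase, by 0.64 (SE 0.15, adjusted p = 0.00732) and 0.86 (SE 0.15, adjusted p = 0.00079), and Serpinh1, the collagen chaperone HSP47, by 0.34 at 24 h (SE 0.10, adjusted p = 0.0245). Crtap, a partner of prolyl 3-hydroxylase, fell by 0.69 at 6 h, and Adamts3, Bmp1 and Mia3 fell by 0.95, 0.42 and 0.30 at 24 h. In iWAT 6 of 22 fell at 6 h and 5 at 24 h, and none rose. Tll1, P3h2 and Adamts14 fell by 1.78, 0.93 and 0.82 at 6 h, and Bmp1, the procollagen C-proteinase, its enhancer Pcolce and P3h3 by 0.83, 0.80 and 0.52 at 24 h. The response was higher in BAT than in iWAT for P4ha1 at 6 h (1.28, SE 0.26, adjusted p = 0.00243), for Plod2 at both times (0.94 and 1.08, adjusted p = 0.00509 and 0.00192) and for Pcolce and Serpinh1 at 24 h (1.06 and 0.69, adjusted p = 0.00879 and 0.0397).

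Of 5 cross-linking enzymes, Loxl4 and Loxl2 fell in iWAT, by 1.70 and 0.53 at 6 h and by 1.36 and 0.57 at 24 h, and Lox, lysyl oxidase, fell by 0.61 in BAT at 24 h (SE 0.13, adjusted p = 0.0024). None of the 5 was called in BAT at 6 h. Among 14 genes of collagen breakdown and its inhibitors, 1 rose and 1 fell in BAT at 6 h and 2 fell at 24 h, and 1 rose and 2 fell in iWAT at 6 h and 3 fell at 24 h. Timp4 rose by 0.66 in BAT at 6 h, and Mmp19, a matrix metalloproteinase, fell by 0.32 and 0.72 in BAT and rose by 0.37 in iWAT at 6 h. Mrc2, the endocytic collagen receptor, fell by 0.70 and 0.55 in iWAT, and Timp1 by 1.09 at 24 h. The 12 fibril-binding matrix proteins gave 2 falls at each time in BAT, Prelp and Sparc by 0.40 and 0.23 at 6 h and Aspn and Lum by 0.34 and 0.31 at 24 h. In iWAT Ogn fell by 1.10 and 1.13, and Dcn, decorin, by 0.68 at 6 h. Of 8 collagen receptors 2 fell at each time in BAT, namely Ddr1 by 1.08 and 1.17 and Itga1 by 0.41 and 0.31. In iWAT Ddr2 fell by 0.84 and 0.79, Itga1 by 0.29 and 0.31 and Ddr1 by 0.61 at 24 h. Beside these lists, 12.5% of all tested genes rose and 10.2% fell in BAT at 6 h, and 12.8% and 10.4% at 24 h. The shares in iWAT were 12.9% and 10.1% at 6 h and 12.8% and 10.1% at 24 h.

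The partners of type IV in the basement membrane did not move as a group. Of 14 tested, 2 rose and 2 fell in BAT at 6 h, and 1 rose and 3 fell at 24 h. Lamb3, a laminin beta chain, rose by 1.39 (SE 0.20, adjusted p = 0.000131) and 1.66 (SE 0.20, adjusted p = 2.32e-05), and Lamb1 by 0.47 at 6 h. Lama4, the laminin alpha chain of vessels and adipocytes, fell by 0.72 (SE 0.08, adjusted p = 2.05e-05) and 1.00 (SE 0.08, adjusted p = 1.12e-06), Lamb2 by 0.26 and 0.34, and Lamc1 by 0.28 at 24 h. Nid1, nidogen, which links laminin to type IV, changed by 0.02 and 0.03 without a call. In iWAT 3 partners fell at 6 h and 5 at 24 h, Lama3 by 1.32 and 1.26, Lamb2 by 0.63 and 0.64, Agrn by 0.42 at 6 h and Lamc1 by 0.48 at 24 h among them, and none rose. Of 15 genes of the TGF-beta axis, a known inducer of collagen transcription, 4 rose and 6 fell in BAT at 6 h, and 3 of each were called at 24 h. Smad3 rose by 0.91 at 6 h and 0.98 at 24 h and Ccn2 by 1.12 and 1.19, whereas the receptors Tgfbr1 and Tgfbr2 fell, by 0.41 and 0.47, and 0.69 and 0.58. In iWAT 2 fell at 6 h, Tgfb2 and Ltbp4, and 3 at 24 h, Ltbp2, Ltbp4 and Tgfbr2, and none rose. Of all tested genes, 12.5% rose and 10.2% fell in BAT at 6 h, and 12.8% and 10.4% at 24 h. The shares in iWAT were 12.9% and 10.1% at 6 h and 12.8% and 10.1% at 24 h. At 22 °C, where 34.5% of all tested genes were lower and 32.4% higher in BAT than in iWAT, 16 of 23 synthesis genes were lower and 4 higher, 4 of 5 cross-linking enzymes were lower and 0 higher, and 11 of 14 breakdown genes were lower and 1 higher. Of 12 fibril-binding proteins 10 were lower and 0 higher, of 8 receptors 5 and 1, of 14 basement membrane partners 10 and 3, and of 15 genes of the TGF-beta axis 6 and 3, which is near the share of all genes.

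Markers of the cells that make collagen fell in part in iWAT and moved in both directions in BAT. Over all tested genes, 12.9% rose and 10.1% fell in iWAT at 6 h, and 12.8% and 10.1% at 24 h. The shares in BAT were 12.5% and 10.2% at 6 h and 12.8% and 10.4% at 24 h. Of 15 progenitor and fibroblast markers 7 fell in iWAT at 6 h and 4 at 24 h, led by Fbn1, Cd34 and Cd248, and none rose. Their summed level was 7932 to 9332 CPM in iWAT at 22 °C, 4785 to 9975 CPM at 6 h and 6201 to 8007 CPM at 24 h, and Pdgfra changed by -0.40 and -0.23 without a call. In BAT 3 of these markers fell at 6 h, and 2 fell and 1 rose at 24 h, with summed levels of 1060 to 1797, 953 to 1367 and 1202 to 1442 CPM. At 22 °C 14 of the 15 were lower in BAT than in iWAT and Pdgfrb was higher, where 34.5% of all tested genes were lower and 32.4% higher. Of 12 endothelial markers 6 fell in iWAT at each time and none rose, and their summed level was 501 to 873, 449 to 587 and 508 to 649 CPM. In BAT 1 rose and 1 fell at 6 h and 2 of each at 24 h, with summed levels of 813 to 1034, 856 to 1120 and 862 to 1054 CPM. Pecam1 rose in BAT by 0.55 and 0.36, while Cdh5, the endothelial cadherin, changed by 0.08 and 0.02 (adjusted p = 0.572 and 0.88). The response of Cdh5 was higher in BAT than in iWAT by 0.63 and 0.67 (adjusted p = 0.0369 and 0.0298), since it fell in iWAT by 0.56 and 0.65. Mural markers gave 1 rise and 1 fall of 10 in BAT at 6 h and 2 rises and 1 fall at 24 h, with summed levels of 766 to 844, 684 to 779 and 576 to 663 CPM, and in iWAT 1 fell at 6 h, and 2 fell and 1 rose at 24 h. The part of these cells in the collagen changes was not tested.

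Other marker lists bear on the purity of the samples. Over all tested genes, 12.9% rose and 10.1% fell in iWAT at 6 h, and 12.8% and 10.1% at 24 h. The shares in BAT were 12.5% and 10.2% at 6 h and 12.8% and 10.4% at 24 h. Of 12 macrophage markers, 4 fell in iWAT in the first 6 h and 0 at 24 h, while 1 and 3 rose in BAT. Of 10 adipocyte markers 3 rose at 6 h and 1 rose and 1 fell at 24 h in iWAT, and in BAT 3 fell at 6 h, and 2 rose and 3 fell at 24 h. Brown adipocyte markers rose in 5 and 7 of 9 tested in iWAT and in 5 and 5 of 10 in BAT. None of the tested Schwann cell markers was called in cold, 2 of 8 lymphocyte markers fell in iWAT at 6 h, and summed epithelial and mesothelial markers were at most 1.30 and 5.07 CPM in any library. Skeletal muscle markers fell in 4 and 3 of 5 tested in iWAT, where 1 control library held them, and in 1 of 10 in BAT at 6 h and 0 of 10 at 24 h. With the muscle level as a covariate, an analysis chosen after seeing the data, 7 collagens were called in iWAT at 6 h in place of 13. Col3a1 (adjusted p = 0.081), Col6a3, Col6a5, Col14a1, Col16a1 and Col23a1 were not among them. Calls over all tested genes dropped by a larger proportion with this covariate, and their counts are given in the last paragraph.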

How the data were processed

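RNA-seq of 30 libraries was analysed as deposited. The authors' counts per gene are whole, unnormalised numbers, and per the labels' protocols come from oligo(dT)-selected RNA and the NEBNext Ultra II RNA kit. The submitters' processing notes name HISAT2, HTSeq and GRCm39 without roles or order. The deposited FPKM are each count divided by 1 fixed gene length and the library total. Strandedness is not given in the sources used here.

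Groups came from the labels. Counts were tested with edgeR 4.0.16 (R 4.3.3; filterByExpr with a minimum count of 10, TMM factors, quasi-likelihood test, Benjamini-Hochberg threshold 0.05) in 1 fit per tissue of 15 libraries, and in 1 fit of all 30 libraries for BAT against iWAT and for the differences of responses. CPM use TMM factors over all 30 libraries. The alternatives used limma 3.58.1 on log2(FPKM + 1) or log2(FPKM + 0.1), DESeq2 1.42.0, other scaling factors (upper-quartile, RLE), unfiltered genes, fits of only 2 groups, each library left out, and a replicate block. Within a tissue the block was the replicate number. In the fits of all 30 libraries it was the replicate number within each treatment, as if same-numbered BAT and iWAT libraries came from 1 mouse. The fits were tested on simulated data. The 495 rows with an Ensembl ID but no symbol stayed in the tests and were never named. In 0 of 15 pairs of groups did all same-numbered libraries correlate above a set limit of 0.1 (range -0.624 to 0.64), so the main fits have no block. For BAT and iWAT at 24 h all were positive (0.089 to 0.472), as they were for iWAT at 22 °C and BAT at 6 h (0.04 to 0.64), which differ in treatment. A shared mouse is therefore not excluded, and the main fits treat the tissues as independent. Libraries within a group differed beyond counting error (chi-square per degree of freedom 13.6 to 178). Members and gene lists were chosen with earlier results of these data known. Per-library values are given for a fixed set of 12 collagens and for the 4 largest called falls and rises whose mean reached 1 CPM in some group; of other lists, up to 3 called genes per direction are named, and a few further ones were chosen after their values were seen.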

Additional observations from a re-analysis of the deposited data

Results flagged for a closer look

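Among 96 groups of 5 libraries, over 12 collagens in CPM and 4 shares of collagen, 9 held a library far from the others by Dixon's test, where chance flags about 1 in 20. In BAT at 22 °C replicate 4 was high in Col1a1, at 178 CPM beside 81.6 to 99.4 CPM, in Col1a2, at 234 CPM beside 117 to 136 CPM, and in Col3a1, at 504 CPM beside 300.1 to 338 CPM. In BAT at 6 h replicate 5 was low in Col1a2, at 60.5 CPM beside 119 to 137 CPM, and replicate 4 was high in Col5a3, at 52.8 CPM beside 20.8 to 23.2 CPM. In BAT at 24 h replicate 3 was low in Col1a2, at 96 CPM beside 115 to 119.7 CPM, and in Col3a1, at 180 CPM beside 227 to 235 CPM, and replicate 5 was low in Col4a2, at 494 CPM beside 577 to 609 CPM. In iWAT at 22 °C replicate 4 was low in Col4a1, at 422 CPM beside 721 to 828 CPM.

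The response to cold differed between BAT and iWAT in the test of the difference itself for 4 collagens. These were 2 of 33 tested at 6 h and 4 of 33 at 24 h, where 9.4% and 7.81% of all tested genes were called. The log2 difference, BAT minus iWAT, was 0.655 for Col4a1 and 0.741 for Col4a2 at 6 h. At 24 h it was 0.773 for Col4a1, 0.899 for Col4a2, 0.93 for Col8a1 and 1.25 for Col13a1. The call of Col13a1 was lost in 13 of 20 fits without 1 library. The 6 h calls of Col4a1 and Col4a2 were lost in 2 and 5 of 20 such fits.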

How the results depend on the processing

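Apart from fits without 1 library, counts of called collagens moved by more than 1.5 times in few settings. Among fits without 1 library they did so in 7 of 20 for the 6 h difference of responses. They also did so in 3 of 10 such fits in iWAT at 6 h and in 1 of 10 between the cold times in BAT. DESeq2 called 1 collagen between 24 h and 6 h in iWAT where edgeR called 0. For the difference of responses at 6 h, limma called 6 collagens on log2(FPKM + 1) and 5 on log2(FPKM + 0.1), against 2. With the skeletal muscle covariate, chosen after seeing the data, 7 were called in iWAT at 6 h, against 13. Without iWAT 22 °C replicates 2 and 4 together, also chosen after seeing the data, 12 were called at 6 h and 13 at 24 h. Without 1 library the counts were 6 to 16 in iWAT at 6 h (lowest without 22 °C replicate 1, highest without replicate 4), 8 to 17 in iWAT at 24 h (the same libraries), 7 to 12 in BAT at 6 h, 12 to 14 in BAT at 24 h, 3 to 5 between the cold times in BAT, 25 to 30 for BAT against iWAT, 0 to 5 for the 6 h difference of responses (0 without iWAT 22 °C replicate 5) and 3 to 5 for the 24 h difference. Without 1 library Col4a1 in iWAT at 6 h ranged from -0.189 to 0.006, Col4a2 in iWAT from -0.158 to 0.088 at 6 h and -0.213 to 0.028 at 24 h, and Col4a2 in BAT against iWAT from -0.251 to 0.011, none of them called. For Col4a2 in iWAT at 6 h the sign also turned without 22 °C replicate 1 (0.009) and without 6 h replicate 5 (0.036).

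With the replicate block, 11 collagens were called in iWAT at each time, 0 between the cold times, 12 and 15 in BAT at 6 h and 24 h, 4 between the cold times in BAT, 27 for BAT against iWAT, and 3 and 5 for the differences of responses. Col4a2 in iWAT at 6 h was 0.002 under the replicate block and not called. The labels give same-numbered libraries only a shared number, and do not say whether they share a mouse. Over the single collagens, settings other than left-out libraries kept direction and threshold in 989 cases, lost the threshold in 35, gained it in 38 and turned in 1; with 1 library left out these numbers were 1202, 99, 13 and 6. The causes were not tested.

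Scaling moves the tissue comparison: the median of all genes in BAT against iWAT was -0.043 with TMM, -0.233 with upper-quartile factors and -0.343 on log2(FPKM + 1), and the calls over all genes were 4857 lower and 4570 higher, 6254 and 3516, and 9302 and 1966. In iWAT at 6 h they were 1379 lower and 1769 higher with TMM, 2074 and 1250 with upper-quartile factors and 4324 and 575 on log2(FPKM + 1). For the 6 h difference of responses they were 849 lower and 476 higher with TMM and 401 and 2205 on log2(FPKM + 1). Relative to these medians Col4a1 and Col4a2 kept differences of responses of 0.632 to 0.906 in both units at both times. Over all genes, 3148 were called in iWAT at 6 h, against 1386 with the muscle covariate, 1525 and 1585 without 22 °C replicates 1 and 2, 1913 without 6 h replicate 5, and 4899 and 4783 by limma on the pseudocounts of 1 and 0.1. At 24 h 3145 were called, against 2029 with the muscle covariate and 2053 without 22 °C replicate 1. Between the cold times in iWAT edgeR called 1 gene and 0 to 13 without 1 library, limma 5 and 0, and DESeq2 122. For the differences of responses 1325 were called at 6 h, against 2606 by limma on log2(FPKM + 1), 2085 with the block and 862, 871 and 2173 without iWAT 22 °C replicates 1, 2 and 4. At 24 h 1100 were called, against 1956 by limma on log2(FPKM + 1) and 703 without iWAT 22 °C replicate 1. The precision is limited by 5 libraries a group and, for collagens under 1 CPM, by few counts.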
